A study of Mus musculus with 2 samples.

Results

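Enterochromaffin cells are the serotonin-producing cells of the gut epithelium. They belong to the enteroendocrine lineage, which starts in crypt cells that switch on the transcription factor Neurog3 (Ngn3) for a short time and then leave the progenitor state. Tph1 makes the rate-limiting enzyme of serotonin synthesis in the gut, so a cell that carries Tph1 after Neurog3 has declined is read as an enterochromaffin cell past its progenitor stage. Such cells store serotonin in granules packed with chromogranins, release it on chemical or mechanical stimuli, and in the small intestine many also make substance P from Tac1.

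The cells came from mouse jejunal and ileal epithelial organoids homozygous for Neurog3-RFP, a red fluorescent reporter of Neurog3, and RFP-positive cells were sorted singly into the wells of 384-well plates. One plate held cells given DMSO, the solvent, for 48 h and the other held cells given ISX-9, a small molecule known as an inducer of neuronal differentiation, for 48 h. Every group below therefore carries the homozygous reporter and passed the same sort, which sets the shares of cell types. There was 1 plate per treatment, so neither treatment was replicated, wells do not stand in for replicates, and no test was made.

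Enterochromaffin wells past Neurog3 were chosen by 2 measured values, at least 1000 CPM (counts scaled to a nuclear read total of 1e6 per well) of Tph1 and less than 1000 CPM of Neurog3, in wells with at least 2000 reads and 500 genes. This rule found 47 of 300 kept DMSO wells (15.7%, 95% Clopper-Pearson interval 11.7 to 20.3) and 44 of 290 kept ISX-9 wells (15.2%, 11.2 to 19.8), or 91 of 590 in all. Because Tph1 and Neurog3 were measured in the same libraries as all other genes, every contrast of these wells with the rest is a description. The median enterochromaffin well had 15730 reads and 1824 genes in the DMSO plate and 16483.5 reads and 2531 genes in the ISX-9 plate, against 29587 and 25390 reads in the other kept wells. The deepest enterochromaffin well held 20.7% of the summed reads in DMSO and 14.7% in ISX-9. With 3 counts as the floor, a gene with no read lay below 1.48 CPM in the DMSO enterochromaffin wells and below 2.21 CPM in the ISX-9 ones. Mitochondrial reads were 21.7% and 17.7% of all reads in these wells, and Rn45s, a ribosomal RNA precursor, 8.26% and 4.62% of nuclear reads. Poisson intervals below are 95% intervals of summed reads and cover counting error only, since amplified reads are not independent molecules. Doublets were not called, and 45 of 47 and 39 of 44 enterochromaffin wells had less than 1000 CPM of each of Muc2, Lyz1 and Itln1, which mark goblet and Paneth cells.

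The sequence just before the transcription start is shown for Tph1, the gene of the rule, and for Tac1 and Chgb, which stood high in the same wells, because these starts hold the searched letters among the genes highest in enterochromaffin wells. Capitals mark CAGATG, a form of the E-box that helix-loop-helix factors such as Neurog3 bind, TGACGTCA, the cAMP response element, and TAATTA, a core read by homeodomain factors such as Lmx1a. The stretches are the 250 bases before the start in RefSeq on GRCm38.p6, written 5′ to 3′ on the gene's strand, at chr7:46667378-46667627 (minus strand, the second of 2 Tph1 starts), chr6:7554811-7555060 (plus strand, Tac1) and chr2:132781392-132781641 (plus strand, Chgb).
Tph1: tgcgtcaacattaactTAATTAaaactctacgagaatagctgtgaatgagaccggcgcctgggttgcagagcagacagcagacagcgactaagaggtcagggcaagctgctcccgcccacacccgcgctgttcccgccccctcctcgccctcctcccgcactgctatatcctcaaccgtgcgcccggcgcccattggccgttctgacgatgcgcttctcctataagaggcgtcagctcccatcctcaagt
Tac1: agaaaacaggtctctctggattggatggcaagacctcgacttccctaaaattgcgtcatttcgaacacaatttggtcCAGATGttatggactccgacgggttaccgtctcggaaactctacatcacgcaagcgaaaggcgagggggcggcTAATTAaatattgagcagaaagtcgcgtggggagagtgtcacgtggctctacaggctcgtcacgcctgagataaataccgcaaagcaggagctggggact
Chgb: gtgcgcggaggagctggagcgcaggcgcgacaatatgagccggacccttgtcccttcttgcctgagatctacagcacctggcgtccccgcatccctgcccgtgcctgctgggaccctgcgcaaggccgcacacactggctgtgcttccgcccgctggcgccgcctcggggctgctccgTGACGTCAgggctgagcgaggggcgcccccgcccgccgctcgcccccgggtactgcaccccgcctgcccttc

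Tac1 carried CAGATG at -173 and TAATTA at -100, Tph1 TAATTA at -234 and Chgb TGACGTCA at -72, counted from the start. Both strands were searched, and no match overlapped another. Of the 12 genes highest in enterochromaffin wells, 11 had an entry, with 13 starts, and across these CAGATG was in 1, TGACGTCA in 1 and TAATTA in 2. Among all 32536 mouse starts, the same letters were in 14.4%, 1.56% and 4.84%. A match describes the letters and is neither a bound site nor a cause.

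**Figure D1:**
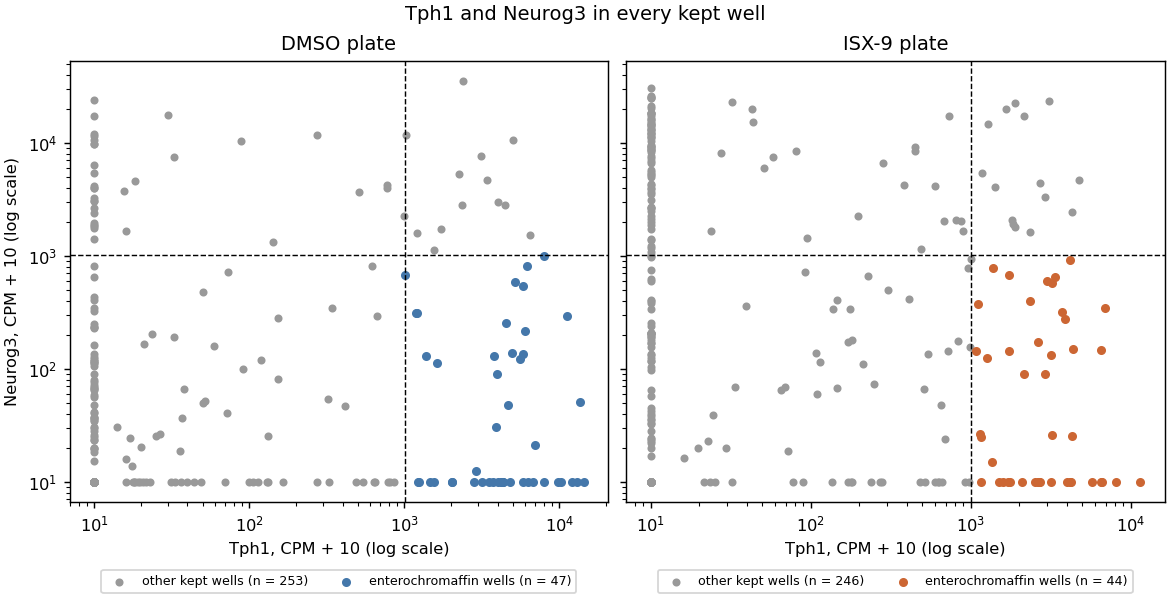
Tph1 (x axis) against Neurog3 (y axis) in every kept well of each plate, both as CPM + 10 on log scales. Coloured points are the 47 DMSO and 44 ISX-9 enterochromaffin wells, grey points the other wells, and dashed lines the limits of 1000 CPM, with grey wells close to the Tph1 limit in both plates.

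Tph1 in enterochromaffin wells ran from 1006 through a median of 4323 to 14301 CPM in DMSO and from 1076 through 2804 to 11469 CPM in ISX-9. Just outside the limit, the highest excluded Tph1 level was 849 CPM in DMSO and 997 CPM in ISX-9, and 8 and 16 wells lay between 500 and 1000 CPM. The highest Neurog3 level inside was 980 CPM in DMSO and 910 CPM in ISX-9, and the lowest outside, with Tph1, was 1109 and 1619 CPM. No Neurog3 read was found in 25 of 47 DMSO and 19 of 44 ISX-9 enterochromaffin wells. These values chose the wells and are not results. Both plates use the same 384 well positions, of which 8 held an enterochromaffin well in both, and a shared position is not a shared cell.

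The label was checked with the 5 other enterochromaffin markers. Chga, which encodes the granule protein chromogranin A, had a read in 44 of 47 DMSO wells, with levels from 0 through a median of 5703 to 31670 CPM, and in 43 of 44 ISX-9 wells, from 0 through 3700 to 49258 CPM. Tac1, the substance P precursor, had a read in 46 of 47 DMSO wells (0, 7207 and 21332 CPM as lowest, median and highest) and in 40 of 44 ISX-9 wells (0, 3933 and 34522 CPM). Both markers were thus present in nearly every well of both plates, with wide overlap. Slc18a1, the vesicular monoamine transporter that loads serotonin into granules, was read in 40 of 47 and 39 of 44 wells, with medians of 1103 and 1017 CPM. Ddc, the decarboxylase of the final step of serotonin synthesis, was read in 37 of 47 and 31 of 44 wells, with medians of 633 and 373 CPM. Lmx1a, a homeodomain factor of enterochromaffin cells, was read in 33 of 47 and 24 of 44 wells, with medians of 320 and 62.6 CPM.

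In wells with at least 1000 CPM of Muc2, the main goblet mucin, and below both limits of the rule, which should lack these genes, wells with a read were common: Chga was read in 53.1% of 81 DMSO wells at 24.6 CPM and in 22.2% of 36 ISX-9 wells at 22.9 CPM, and Tac1 in 46.9% and 47.2%. The median depth of these goblet wells was 37313 reads in DMSO and 13357.5 in ISX-9. Summed levels in goblet wells were far under those of enterochromaffin wells, whose summed Chga stood at 8609 and 5576 CPM and summed Tac1 at 8059.7 and 8262 CPM. After thinning each well to 2000 reads, Chga was found in 89.4% of DMSO and 84.1% of ISX-9 enterochromaffin wells, against 8.64% and 2.78% of goblet wells. A read of an abundant hormone or granule gene is therefore also found in wells of another type, and levels or ratios are given beside many of the shares below.

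**Figure D2:**
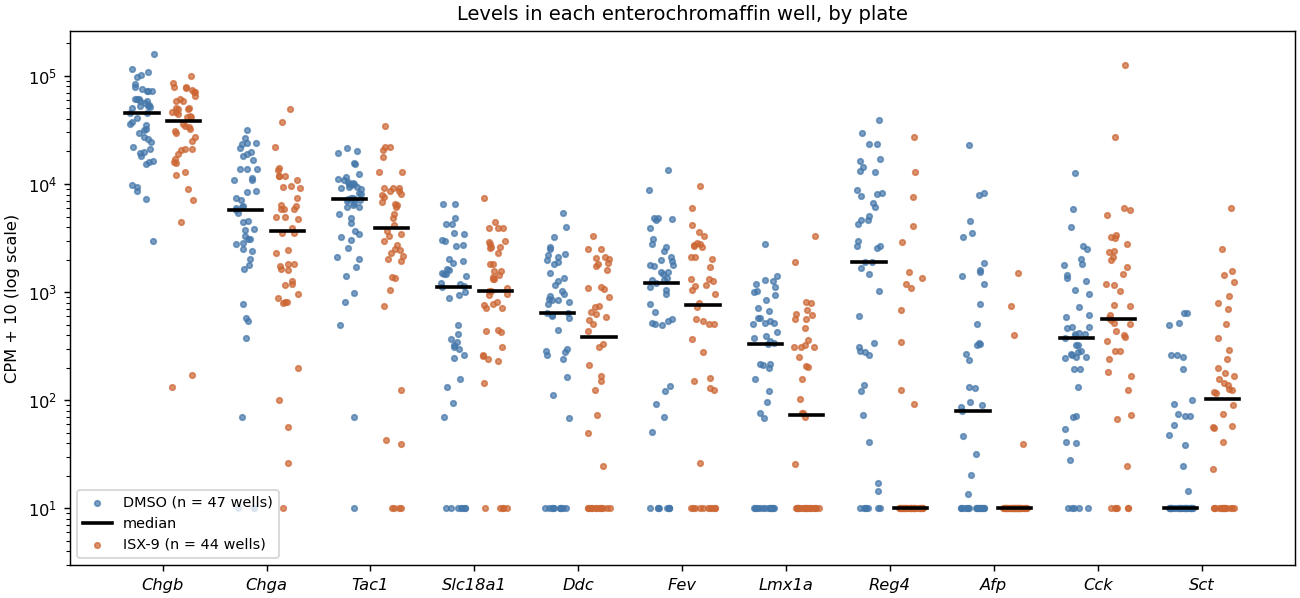
Levels of 11 genes (x axis) in each enterochromaffin well as CPM + 10 on a log scale (y axis), for 47 DMSO and 44 ISX-9 wells, with horizontal bars at the median and points at 10 for wells without a read. The plates overlap for Chgb, Chga, Tac1, Slc18a1, Ddc, Fev and Cck, while Reg4 and Afp were read in 40 and 28 DMSO wells against 13 and 4 ISX-9 wells.

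Against all other kept wells, 122 of 5075 genes were at least 2-fold higher in the enterochromaffin wells of both plates (2.4%) and 38 were at least 2-fold lower (0.749%), on the scale of the log2 ratio of summed CPM + 10. A gene entered with at least 100 reads in kept wells and a read in 25% of enterochromaffin wells of both plates, or of other wells of both plates, so counts over lists favour genes high in one of them. Within 1 plate, 5.22% of the genes were 2-fold higher and 2.56% lower in DMSO, and 3.92% higher and 4.83% lower in ISX-9. The median log2 ratio over all 5075 genes was -0.01 in DMSO and -0.08 in ISX-9. Of the 6 markers, Tph1 was high by the rule, and Chga, Tac1, Slc18a1, Lmx1a and Ddc were each at least 2-fold higher in both plates. Enterochromaffin wells summed 23338 CPM of the 6 markers in DMSO and 18966 CPM in ISX-9, and the other wells 1494 and 2262 CPM. These sums include Tph1 and so do not check the label on their own.

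The 12 genes highest in both plates were Pappa2, Chga, Tph1, Sstr1, Ptprn, Tac1, Lmx1a, Resp18, Ceacam20, Amigo2, Chgb and Ncam2. Pappa2, a protease that frees insulin-like growth factors from their binding proteins, stood at 486 CPM against 13.7 CPM in the other DMSO wells (log2 ratio 4.39) and at 180 against 1.44 CPM in ISX-9 (4.06). Its reads came from 26 of 47 wells in DMSO and 11 of 44 in ISX-9, and 1 well held 58.4% of the ISX-9 reads, without which, and without the highest well of each other group, the ISX-9 ratio was 3.01. Sstr1, a receptor for the inhibitory hormone somatostatin, stood at 176 against 10.8 CPM in DMSO and 264 against 18.7 CPM in ISX-9, and was read in 15 enterochromaffin wells of each plate. Pappa2 and Sstr1 were thus read in part of the enterochromaffin wells, and whether the rest lacked them or were too shallow was not tested. Ncam2 and Amigo2, adhesion molecules known from neurons, were read in 29 and 18 DMSO wells and in 24 and 14 ISX-9 wells, and Ceacam20, of the carcinoembryonic antigen family, in 20 and 17. Their log2 ratios over other wells were 3.05 and 2.52 for Ncam2, 2.73 and 2.68 for Amigo2, and 2.94 and 2.71 for Ceacam20, in DMSO and ISX-9 in turn.

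**Figure D3:**
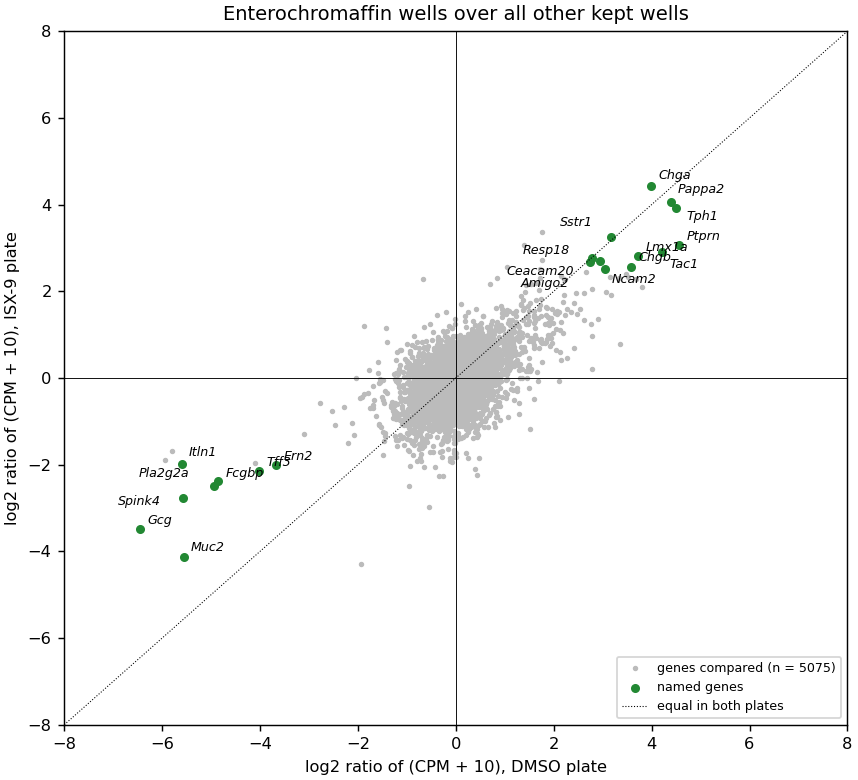
Log2 ratio of CPM + 10, enterochromaffin wells over all other kept wells, in the DMSO plate (x axis) and the ISX-9 plate (y axis) for 5075 genes, with the 20 named genes in green and a dotted line of equal ratios. The 12 named high genes lie above 2 on both axes, and the 8 named low genes lie further below 0 in the DMSO plate than in the ISX-9 plate.

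Among the genes of serotonin synthesis and handling, 9 of the 12 measured could be compared. Of them 4, Tph1, Ddc, Slc18a1 and Gch1, were at least 2-fold higher in both plates, beside 2.4% of all genes. Tph1 is the gene of the rule, so its place in this count was set in advance. However, Ddc in ISX-9 was at 1.35 by sums and 0.85 after thinning. Gch1, the first enzyme of the route to tetrahydrobiopterin, the cofactor that Tph1 needs, stood at 192 against 52.9 CPM in the other DMSO wells (log2 ratio 1.68) and 408 against 81.1 CPM in ISX-9 (2.20). Qdpr, which regenerates the cofactor, stood at 304 against 93.3 CPM in DMSO (1.60) and 165 against 98.2 CPM in ISX-9 (0.69), and so passed 2-fold in 1 plate. The other cofactor genes compared were within 2-fold of the other wells: log2 ratios were 0.53 and 0.29 for Pts, 0.01 and -0.40 for Spr, and 0.22 and 0.22 for Pcbd1. Slc18a2, the second vesicular monoamine transporter, was seen in 9 of 47 DMSO and 7 of 44 ISX-9 enterochromaffin wells, at 36.6 and 26.5 CPM, and at 0.628 and 0.287 CPM in the other wells. Slc6a4, the serotonin reuptake transporter, stood at 11.9 CPM in 2 DMSO wells and 5.88 CPM in 3 ISX-9 wells, against 7.62 and 12.2 CPM in the other wells. Maoa, which breaks serotonin down, stood at 104 and 69.1 CPM against 67.9 and 56.3 CPM in the others. Beside Tph1 of the rule, Ddc, Slc18a1 and Gch1 were thus high against all other wells, while Slc6a4 and Maoa were not 2-fold higher in either plate. Against wells with both Neurog3 and Tph1, Slc18a1 (0.80 in DMSO and 0.26 in ISX-9), Ddc (0.997 and 0.49) and Gch1 (0.44 and 0.78) were within 2-fold. Slc18a2, read in few wells, was not (2.22 and 1.87). Against wells with Neurog3 without Tph1, ratios were 1.84 and 1.15 for Slc18a1, 0.98 and 0.67 for Ddc, and 1.10 and 2.40 for Gch1.

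Granins and granule proteins were the list with the most members high in both plates: 11 of 13 compared genes were at least 2-fold higher, beside 2.4% of all genes. All 13 had positive log2 ratios in both plates, with medians of 1.76 in DMSO and 2.56 in ISX-9. Chgb, which encodes chromogranin B, was read in every enterochromaffin well, from 2940 through 45454 to 159529 CPM in DMSO and from 124 through 38605 to 98773 CPM in ISX-9. Its summed level was 51655 against 4289 CPM in the other DMSO wells and 44979 against 7559 CPM in ISX-9. Ptprn, a granule membrane phosphatase-like protein, stood at 1501 against 53.8 CPM in DMSO (4.57) and 744 against 80.1 CPM in ISX-9 (3.06), in 30 of 47 and 28 of 44 wells. The neuropeptide precursor Vgf stood at 1159 CPM in DMSO and 839 CPM in ISX-9, with log2 ratios of 3.69 and 2.27. Scg3 passed 2-fold in DMSO by sums (1.04) but not as a mean over wells (0.48). Pcsk1, the convertase that cuts prohormones, had ratios of 2.75 and 1.25, Pam, which amidates peptides such as substance P, 1.72 and 1.68, and Resp18, an endocrine granule protein, 2.77 and 2.77. The 2 compared genes below 2-fold in at least 1 plate were Ptprn2 (0.83 and 1.62) and Cryba2 (0.51 and 0.87). Scg2 was not among the compared genes, since it was read in 4 of 47 DMSO wells against 13 of 44 ISX-9 wells.

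Of 13 compared genes of vesicle fusion and exocytosis, 7 were at least 2-fold higher in both plates, beside 2.4% of all genes. The median log2 ratio of the 13 was 1.18 in DMSO and 1.05 in ISX-9. Rab3c, a small GTPase of regulated secretion, stood at 658 against 38.0 CPM in the other DMSO wells (3.80) and 143 against 25.9 CPM in ISX-9 (2.09). Snap25, a SNARE protein of vesicle fusion, stood at 216 against 25.8 CPM in DMSO (2.66) and 421 against 69.8 CPM in ISX-9 (2.43). Cadps, which primes dense-core vesicles, had ratios of 1.72 and 2.53, Unc13a 1.70 and 1.59, and Stx1a 1.98 and 1.27. Cplx2 passed in ISX-9 by sums (1.05) but not as a mean over wells (0.45). Syt13 was above the other wells in DMSO (1.35) and level with them in ISX-9 (124 against 124 CPM).

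Among 8 compared sensory receptors and ion channels, 5 were at least 2-fold higher in both plates, beside 2.4% of all genes. The medians of the 8 were 1.79 and 1.65. Scn3a, a voltage-gated sodium channel subunit, was read in 45 of 47 DMSO wells, from 0 through 3949 to 20308 CPM, and in 43 of 44 ISX-9 wells, from 0 through 3189 to 9985 CPM. Its summed level of 2371 CPM in DMSO and 2479 CPM in ISX-9 stood against 198 and 483 CPM in the other wells. The calcium channel genes Cacna2d1 (log2 ratios 1.54 and 2.17) and Cacna1h (2.04 and 1.14) and the cation channel Trpm2 (2.21 and 2.28) also passed 2-fold in both plates. Olfr78, an olfactory receptor that responds to short-chain fatty acids, stood at 160 against 5.34 CPM in DMSO and 96.3 against 10.2 CPM in ISX-9, in 18 of 47 and 12 of 44 wells. Ffar2, another receptor for short-chain fatty acids, was 1.33 above the other wells in DMSO and 0.73 in ISX-9. Trpa1, the irritant receptor of enterochromaffin cells, was rare: it was read in 9 of 47 DMSO wells at 86.6 CPM and in 4 of 44 ISX-9 wells at 39.7 CPM, against 0.157 and 0.479 CPM in the other wells. Trpa1 had no read in any of the wells above 1000 CPM of Neurog3, with or without Tph1.

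The wells set apart by the same 2 genes were placed side by side: 34 DMSO and 90 ISX-9 wells with Neurog3 without Tph1, 13 and 15 wells above 1000 CPM of both, and the enterochromaffin wells past Neurog3. The groups are not a time course, and Tph1 and Neurog3 fixed their order. Chga stood at 405, 4619 and 8609 CPM over these groups in DMSO and at 133, 1302 and 5576 CPM in ISX-9. Lmx1a stood at 5.98, 204 and 365 CPM in DMSO and at 18.7, 86.0 and 183 CPM in ISX-9. Tac1 stood at 743, 3768 and 8059.7 CPM in DMSO and at 477, 4374 and 8262 CPM in ISX-9. These 3 markers were thus highest in the wells past Neurog3 in both plates.

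Progenitor genes did not share 1 pattern. Pax4, a transcription factor that follows Neurog3, stood at 311, 161 and 20.3 CPM in DMSO and at 485, 638 and 136 CPM in ISX-9. Sox4, an SRY-related factor of early endocrine cells, stood at 865, 394 and 213 CPM in DMSO and at 1138, 514 and 259 CPM in ISX-9. Pax4 was therefore lowest past Neurog3 in both plates, but its level there was higher in ISX-9, in 14 of 44 wells against 6 of 47. Rcor2, a corepressor, stood at 75.8, 31.1 and 8.41 CPM in DMSO but at 162, 86.0 and 100.03 CPM in ISX-9. Cdkn1a, a cell-cycle inhibitor, stood at 1868, 162 and 144 CPM in DMSO but at 133, 168 and 214 CPM in ISX-9, where it was highest past Neurog3. Of 10 compared progenitor genes, none was 2-fold higher and 2 were 2-fold lower than in all other wells in both plates, beside 2.4% and 0.749% of all genes. The 2 were Neurog3 of the rule and Cbfa2t3, a corepressor of the ETO family (-2.48 and -1.08).

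**Figure D4:**
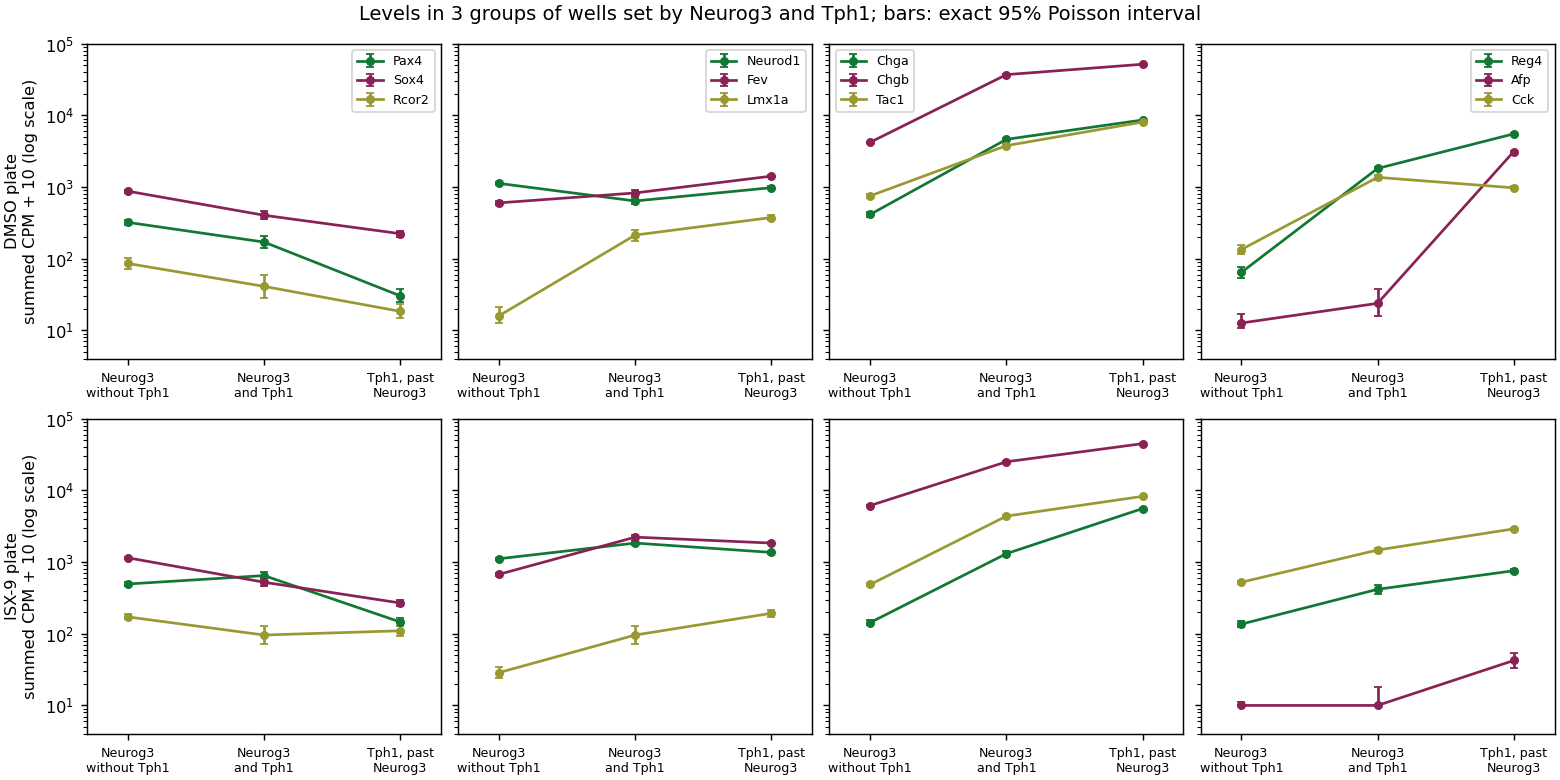
Summed levels as CPM + 10 on a log scale (y axis) with 95% Poisson intervals for 12 genes in wells with Neurog3 without Tph1, wells with both and wells with Tph1 past Neurog3 (x axis), DMSO above and ISX-9 below. Chga, Chgb, Tac1 and Lmx1a are highest past Neurog3 in both plates and Pax4 and Sox4 are lowest there, while Afp reaches 3114 CPM past Neurog3 in DMSO and 32.4 CPM in ISX-9.

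Of the late endocrine and enterochromaffin factors, 13 of 18 were compared. At least 2-fold higher in both plates were 4, beside 2.4% of all genes: Lmx1a, Fev, Neurod1 and Foxa1. Fev, the ETS factor of serotonin-producing cells, stood at 1409 against 286 CPM in the other DMSO wells (2.26) and at 1834 against 598 CPM in ISX-9 (1.60, but 0.78 as a mean over wells). Neurod1, the basic helix-loop-helix factor downstream of Neurog3, stood at 969 and 1355 CPM, with ratios of 1.61 and 1.14 (0.89 in ISX-9 as a mean over wells). Foxa1 had ratios of 1.33 and 1.90. Against wells with both Neurog3 and Tph1, log2 ratios in DMSO and ISX-9 were 0.78 and -0.28 for Fev, 0.62 and -0.43 for Neurod1, and 0.93 and 1.27 for Foxa1. Against wells with Neurog3 without Tph1 they were 1.24 and 1.45 for Fev, -0.20 and 0.29 for Neurod1, and 1.78 and 2.47 for Foxa1. Neurod1 was thus within 2-fold of both groups in both plates. Nkx2-2, Insm1 and Rfx6, general endocrine factors, were above the other wells in DMSO (1.68, 1.25 and 1.51) and close to them in ISX-9 (-0.07, -0.24 and 0.17). In that plate the other wells held 90 wells with Neurog3 without Tph1, where Nkx2-2 stood at 593 CPM and Insm1 at 1039 CPM, and the part of these wells in the ratios was not tested.

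Markers of other secretory cells were low. All 6 compared goblet markers and all 4 compared Paneth markers were at least 2-fold lower in both plates, beside 0.749% of all genes. These markers made up most of the 8 lowest genes, Muc2, Gcg, Spink4, Pla2g2a, Fcgbp, Tff3, Ern2 and Itln1. Muc2 stood at 32.2 against 1983 CPM in DMSO (-5.56) and at 22.8 against 563 CPM in ISX-9 (-4.13). Itln1, a lectin of Paneth and goblet cells, stood at 103.45 against 5494 CPM in DMSO and 274 against 1108 CPM in ISX-9, where 1 well held 78.8% of its reads. The summed level of the 9 goblet markers was 343 CPM in DMSO and 793 CPM in ISX-9 enterochromaffin wells, and that of the 7 measured Paneth markers 232 and 858 CPM. Mptx2 had no read in enterochromaffin wells of either plate and Defa17 none in those of ISX-9. These sums were higher in ISX-9, where 4 of 5 goblet and 3 of 4 Paneth markers compared were 2-fold above DMSO, beside 8.45% of all genes. The part of these markers in other differences between the plates was not tested. As means over wells the goblet median of ISX-9 over DMSO was 0.07 in place of 1.02 and the Paneth median 0.35 in place of 1.65, with Spink4 at 0.28, Fcgbp at -0.68 and Itln1 at -0.11. The median enterochromaffin well held 344 CPM of Paneth markers in DMSO and 129 CPM in ISX-9, the opposite order to the sums. The 7 tuft markers summed to 4.95 and 14.7 CPM, with 4 at 0 in each plate. Vim, an intermediate filament on the list of immune and mesenchymal markers, was the exception: it stood at 514 against 48.6 CPM in DMSO (3.16) and 384.7 against 68.6 CPM in ISX-9 (2.33), in 31 of 47 and 27 of 44 wells, while 6 of the 8 markers of that list had no read in the enterochromaffin wells of each plate, Cd3e, Cd79a, Lyz2, Col3a1 and Pdgfra in both.

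Among peptide genes, summed Reg4, Afp, Sct, Cck and Gcg differed over 2-fold between the enterochromaffin wells of the plates and Tac1 by less, and for Cck and Gcg this rested on the limits or on single wells, as given with their values. Reg4, a secreted lectin used as an enterochromaffin marker, was read in 40 of 47 DMSO wells, from 0 through a median of 1908 to 38941 CPM, and in 13 of 44 ISX-9 wells, from 0 through 0 to 27127 CPM. The ranges overlapped, but 28 DMSO wells and 9 ISX-9 wells held at least 1000 CPM. Summed Reg4 was 5509 CPM (95% Poisson interval 5407 to 5612) in DMSO wells and 748 CPM (703 to 795) in ISX-9 wells. The log2 ratio of ISX-9 over DMSO was -2.86, and -3.05 when the highest well of each plate was left out. After thinning, Reg4 was found in 68.1% of the DMSO and 25% of the ISX-9 enterochromaffin wells. In the goblet wells, which also carry Reg4, it stood at 1342 CPM in DMSO and 2167 CPM in ISX-9, so the order of the plates was the opposite there, and the difference between the 2 classes was not tested.

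Afp, which encodes alpha-fetoprotein, stood at 3114 CPM (3037 to 3192) in DMSO enterochromaffin wells and 32.4 CPM (23.5 to 43.4) in ISX-9 ones. It was read in 28 of 47 and 4 of 44 wells, with highest wells of 22737 and 1479 CPM. One DMSO well held 65.8% of the reads, and without the highest well of each plate the log2 ratio was -5.27 in place of -6.20. Other DMSO wells held 9.27 CPM of Afp and other ISX-9 wells 0.0958 CPM. All 11 DMSO wells with at least 1000 CPM of Afp also held at least 1000 CPM of Reg4, and 17 held Reg4 without Afp at that level. Across the 47 DMSO enterochromaffin wells, Spearman's rho was 0.80 between Chga and Reg4 and 0.62 between Reg4 and Afp, a description over wells that share 1 library, with rho to the read depth of 0.33 for Chga, 0.34 for Reg4 and 0.51 for Afp. Across the 44 ISX-9 wells, where Afp was read in 4, rho was 0.35 between Chga and Reg4 and -0.005 between Reg4 and Afp.

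Tac1 itself differed little between the plates, at 8059.7 CPM in DMSO and 8262 CPM in ISX-9 (log2 ratio 0.04), although the median well was lower in ISX-9, 3933 against 7207 CPM. At least 1000 CPM of Tac1 was found in 42 of 47 wells in DMSO and 36 of 44 in ISX-9. Sct, the secretin gene, stood at 57.9 CPM (47.9 to 69.4) in DMSO wells and 297 CPM (269 to 328) in ISX-9 wells, with a log2 ratio of 2.18, and was read in 18 of 47 and 29 of 44 wells, with a median well of 0 and 93.4 CPM. At least 1000 CPM of Sct was found in 0 DMSO wells, a share with a Clopper-Pearson upper bound of 7.55%, and in 5 ISX-9 wells, all 5 with at least 1000 CPM of Tac1 and 4 of them with Cck at that level. In goblet wells Sct was read in a share of 40.7% for DMSO and 55.6% for ISX-9, at 38.8 and 117 CPM, beside 38.3% of the DMSO enterochromaffin wells. After thinning, Sct was found in 10.6% of DMSO enterochromaffin wells against 6.17% of goblet wells, and in 27.3% against 25% in ISX-9.

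Cck, the cholecystokinin gene, was read in 42 of 47 DMSO wells, from 0 through 368 to 12569 CPM, and in 38 of 44 ISX-9 wells, from 0 through 555 to 125209 CPM. The medians lay close together and the ranges overlapped, while the summed level was 965 CPM in DMSO and 2899 CPM in ISX-9 (log2 ratio 1.58). One ISX-9 well held 47.6% of the reads, and without the highest wells the ratio was 1.13. With the Tph1 limit at 2000 CPM the Cck ratio was 0.11 and with the limit at 500 CPM 0.73, both under 2-fold. At least 1000 CPM was found in 12 of 47 and 18 of 44 wells, of which 12 and 17 also held Tac1 at that level. Gcg, the proglucagon gene, never exceeded 381 CPM in a DMSO enterochromaffin well, although 26 of 47 wells had a read. After thinning to equal depth Gcg was found in 17.0% of DMSO enterochromaffin wells and 11.1% of DMSO goblet wells, and its summed level was 19.3 CPM against 38.8 CPM in the goblet wells. In ISX-9 enterochromaffin wells Gcg stood at 78.0 CPM, a log2 ratio over DMSO of 1.59, but 1 well held 83.0% of these reads and the ratio was -0.36 without the highest wells, -0.71 with the Tph1 limit at 2000 CPM and 0.24 after thinning. Nts, the neurotensin gene, had 0 reads in DMSO and 668 CPM in ISX-9, of which 1 well held 99.0%.

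Between ISX-9 and DMSO enterochromaffin wells, 433 of 5122 genes were at least 2-fold higher in ISX-9 (8.45%) and 192 at least 2-fold lower (3.75%), with a median log2 ratio of 0.10 over all 5122. This compares 2 libraries. A gene entered with a read in 25% of enterochromaffin wells of either plate, so counts over lists favour genes high in 1 plate. The 10 highest genes, among those with a read in 25% of enterochromaffin wells of a plate and at least 50 reads, were Igf2, Fscn1, Snhg11, Cdkn1c, Igfbp2, Miat, Elavl3, Pipox, Gsdma and Fech. Igf2, a fetal growth factor, was without a read in all 47 DMSO wells and reached 240.5 CPM (215 to 268) in ISX-9, in 15 of 44 wells, at least 161.96-fold above the DMSO floor of 3 counts over the group. Fscn1, the actin-bundling protein fascin, was read in 1 DMSO well, giving 0.990 CPM (0.120 to 3.58), and in 18 ISX-9 wells, giving 263 CPM (237 to 292). Elavl3, a neuronal RNA-binding protein, had no read in DMSO and 81.6 CPM in 11 ISX-9 wells, at least 54.98-fold above the floor. Snhg11, a long noncoding RNA known from neurons, stood at 11.4 CPM in 13 DMSO wells and 249 CPM in 31 ISX-9 wells, the most widely read of the 10.

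Several of these differences were also present outside the enterochromaffin wells. Fscn1 stood at 0.550 CPM in the other DMSO wells and 189 CPM in the other ISX-9 wells, Igf2 at 3.69 and 122 CPM, Miat, a noncoding RNA, at 59.3 and 504 CPM, and Igfbp2, a binding protein of insulin-like growth factors, at 4.55 and 62.0 CPM. Elavl3 stood at 1.65 and 13.6 CPM there and Gsdma at 4.00 and 18.3 CPM. Snhg11 and Pipox were also higher in the other ISX-9 wells than in the other DMSO wells. Their log2 ratios of enterochromaffin over other wells were 0.55 and -0.03 in DMSO and 1.43 and 0.44 in ISX-9. Between the plates, their log2 ratios in enterochromaffin wells were 3.60 and 3.17. Whether the step differed between enterochromaffin and other wells was not tested for any of these genes. Cdkn1c, a cell-cycle inhibitor, rested on 1 well that held 86.5% of its ISX-9 reads, and its log2 ratio was 3.43 with and 1.22 without the highest wells. Fech, the last enzyme of heme synthesis, stood at 25.7 and 304 CPM, in 7 of 47 and 12 of 44 wells.

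The 10 lowest genes were Afp, Nptx2, Cth, Reg4, Ddx58, Slc12a2, Pard3, Zfp644, Me2 and Vmp1. Nptx2, a neuronal pentraxin, was read in 22 of 47 DMSO wells, from 0 through 0 to 10181 CPM, and in 8 of 44 ISX-9 wells, with a highest well of 685 CPM. Summed Nptx2 was 1589 CPM (1534 to 1645) in DMSO wells and 114.0 CPM (96.8 to 133) in ISX-9 wells, with a log2 ratio of -3.69. In all other wells together Nptx2 stood at 24.8 CPM in DMSO and 26.2 CPM in ISX-9, but in the 13 DMSO wells with both Neurog3 and Tph1 it stood at 313 CPM, above the ISX-9 enterochromaffin wells. Vmp1, an autophagy gene, stood at 835 and 174 CPM and Me2, a mitochondrial malic enzyme, at 373 and 70.6 CPM. Cth, Ddx58 and Zfp644 were each read in 3 or fewer ISX-9 enterochromaffin wells. The log2 ratio of Ddx58 was -2.77, but -0.64 with the Tph1 limit at 500 CPM and -0.97 after thinning, both under 2-fold. Slc12a2, a chloride cotransporter also used as a stem cell marker, was within 2-fold as a mean over wells (-0.85), and 1 well held 52.6% of its ISX-9 reads.

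**Figure D5:**
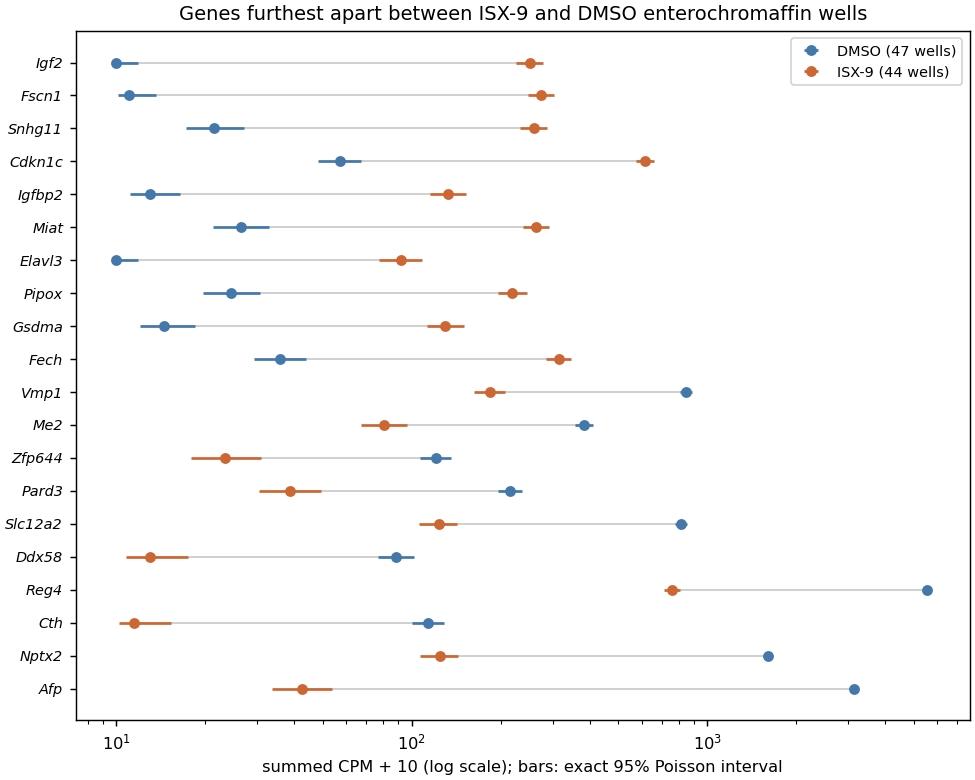
Summed CPM + 10 on a log scale (x axis) in DMSO and ISX-9 enterochromaffin wells with 95% Poisson intervals, for the 10 highest and 10 lowest genes (y axis). Igf2 and Elavl3 had 0 reads in DMSO, and Afp and Reg4 show the highest DMSO levels of the 20 genes.

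Within the lists, 6 of 8 compared genes of neuronal adhesion and cytoskeleton were at least 2-fold higher in ISX-9 enterochromaffin wells, beside 8.45% of all genes. The median of the 8 was 1.43, beside 0.10 for all genes. As means over wells the median was 0.70, and Nlgn2 (0.68), Tubb3 (0.73) and Celsr3 (0.34) were under 2-fold. Beside Fscn1 they were Hpca, a neuronal calcium sensor (19.3 against 232 CPM, in 6 of 47 and 21 of 44 wells), Nrxn2, a presynaptic adhesion protein (4.95 against 62.5 CPM, in 6 and 23 wells), Nlgn2, its postsynaptic partner (130.2 against 357 CPM), Tubb3, the neuronal tubulin (31.2 against 104 CPM), and Celsr3, an adhesion receptor (66.8 against 146 CPM). Map1b was the compared member with a negative ratio (-0.22). Fscn1, Hpca and Nrxn2 reached 25% of enterochromaffin wells in ISX-9 only, and 8 of the 21 measured genes of this list were compared. Summed over the 21, the list stood at 643 CPM in DMSO and 1617 CPM in ISX-9 enterochromaffin wells. It was also higher in ISX-9 outside them, at 205 and 854 CPM in the other wells and 54.2 and 292 CPM in the goblet wells. Whether the step differed between these groups was not tested.

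Granule genes went in both directions. Of 14 compared, 5 were at least 2-fold higher in ISX-9 and 2 lower, beside 8.45% and 3.75% of all genes. The median of the 14 was 0.22, which was -0.20 as means over wells. Pcsk1n, an inhibitor of Pcsk1, stood at 54.0 CPM in DMSO and 217 CPM in ISX-9 (log2 ratio 1.83), whereas Pcsk1 itself stood at 522 and 240.5 CPM (-1.09). Scg2 (1.36), Scg3 (1.15), Cryba2 (1.17) and Ptprn2 (1.07) were higher in ISX-9 and Ptprn lower (-1.0). Scg2 reached the share of wells needed for entry in ISX-9 only, so the filter favoured its place among the higher genes. As means over wells, Pcsk1 (-0.55), Ptprn (-0.84), Scg3 (0.75), Cryba2 (0.74) and Ptprn2 (0.87) were under 2-fold, whereas Pcsk1n (1.37) and Scg2 (2.57) were not. Rab3c was the exocytosis gene 2-fold lower in ISX-9, at 658 CPM (623 to 694) in DMSO wells and 143 CPM (123 to 164) in ISX-9 wells, with median wells of 554 and 61.0 CPM. Cplx2, Cadps and Sv2a were 2-fold higher (1.14, 1.10 and 1.36), but as means over wells Cadps (-0.06) and Cplx2 (0.73) were under 2-fold, and the median of the 16 compared exocytosis genes was -0.09 in place of 0.50. Cacna2d1 stood at 470 CPM in DMSO and 1347 CPM in ISX-9 (1.5, but 0.94 as a mean over wells), with median wells of 183 and 875 CPM.

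The 6 enterochromaffin markers had no 2-fold difference between the treatments, from -0.96 for Lmx1a to 0.44 for Slc18a1. The rule held Tph1 at 1000 CPM or more in both plates, and Lmx1a lay at the limit, 1.99-fold higher in DMSO without the pseudocount. Among serotonin genes Gch1 was higher in ISX-9 (1.05), but under 2-fold as a mean over wells (0.77). Of 12 compared immediate-early genes, 4 were 2-fold lower in ISX-9, beside 3.75% of all genes, and none higher, with a median of -0.49: Fosl2 (-1.80), Nr4a1 (-1.52), Jun (-1.23) and Ier3 (-1.14), whereas Fos, read in 34 of 47 DMSO and 22 of 44 ISX-9 wells, stood at 257 and 215 CPM (-0.25). As means over wells Nr4a1 (-0.84) and Jun (-0.97) were under 2-fold, and after thinning Jun (-0.59) and Ier3 (-0.52), so Fosl2 was past 2-fold under all 3 scalings. Among 11 compared progenitor genes, 3 were 2-fold higher, beside 8.45% of all genes: Rcor2 (2.58), Pax4 (2.27) and Cbfa2t3 (1.38, but -0.04 as a mean over wells). Pax4 reached the share of wells needed for entry in ISX-9 only, so the filter favoured its place in this count. Of 5 compared genes of the unfolded protein response, none passed 2-fold in either direction, with a median of -0.31.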

How the data were processed

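Single cells were prepared by SORT-seq, and the authors deposited raw read counts per gene and well, not molecule counts, per the labels' protocols and the values. BWA and a human build, hg19, are named per the submitters' processing notes without a role; the gene names are mouse symbols, and for the counting rule the sources used here give nothing. Spike-in and mitochondrial rows were left out, wells with at least 2000 reads and 500 genes were kept, and reads were summed per plate and class of wells and scaled to CPM. Ratios are log2 of CPM + 10, intervals are exact 95% Poisson or Clopper-Pearson, and thinning drew 2000 reads per well. A comparison of the treatments needed 50 reads in enterochromaffin wells. Genes were named as the 12 highest and 8 lowest over other wells in both plates by the smaller ratio, and the 10 highest and 10 lowest between treatments whose share of wells and mean over wells moved the same way, leaving out ribosomal, Gm and Rik genes. Up to 5 genes per list were added by size, and further list genes were named after their values were seen. The wells and gene lists were chosen with earlier results of these data known. Listed genes without a row were not analysed here. Doublets were not called. Python 3.11.15, numpy 2.4.6, pandas 2.3.3, scipy 1.17.1 and matplotlib 3.10.9 were used, and the scripts were tested on simulated data.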

Additional observations from a re-analysis of the deposited data

Results flagged for a closer look

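Cck, Fech and Nts lay on opposite sides of the other wells in the 2 plates, and these differences were not tested. The log2 ratio of enterochromaffin over other wells was -1.42 in DMSO and 1.15 in ISX-9 for Cck. For Fech it was -1.87 in DMSO and 1.21 in ISX-9, and for Nts -1.76 in DMSO and 1.51 in ISX-9, where 1 well held 99.0% of the Nts reads. Among wells under the depth limits, which entered no comparison, 8 of 84 in DMSO and 8 of 94 in ISX-9 passed the Tph1 and Neurog3 limits, from 38 and 49 Tph1 reads in all such wells.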

How the results depend on the processing

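Across 81 values of single genes and 1215 alternatives, 1184 stayed on the same side of 2-fold, 29 crossed it and 2 past 2-fold reversed in sign. Shifts on the same side could be large: Afp, ISX-9 over DMSO, ran from -6.54 to -3.84. Tac1, under 2-fold between the treatments, kept its sign in 7 of 15 alternatives. Both reversals were of Gcg, ISX-9 over DMSO, which was 1.59. It became -0.71 with a Tph1 limit of 2000 CPM and -0.36 without the highest well of each gene. The 122 genes higher than in other wells became 67 with a pseudocount of 50, 219 without the filter on the share of wells and 191 with both plates summed. The 38 lower genes became 150 with the Tph1 limit of 2000 CPM, 150 as means over wells, 232 after thinning, 77 and 15 with pseudocounts of 1 and 50, 119 without the filter, 136 without the top 5% of wells by reads, 119 without the highest well of each gene, 92 with both plates summed and 82 without the deepest enterochromaffin well, an alternative chosen after seeing the data. The 433 genes higher in ISX-9 became 671 as means over wells, 1057 after thinning, 113 with a pseudocount of 50 and 1172 without the filter. The 192 lower genes became 292 with the Tph1 limit of 2000 CPM, 442, 720, 54 and 624 in the same order. The ISX-9 share of 15.2% became 20.7% and 10.3% with Tph1 limits of 500 and 2000 CPM and 20.3% without the Neurog3 limit. Thinning moved the share of wells with both Tac1 and Cck to 51.1% in DMSO and 54.5% in ISX-9, Tac1 and Sct to 10.6% and 22.7%, Reg4 and Afp to 38.3% and 0%, and Tac1 and Reg4 to 68.1% in DMSO. Counting only wells with at least 100 CPM moved Tac1 and Cck to 76.6% in DMSO, Tac1 and Sct to 17.0% and 45.5%, and Reg4 and Afp to 38.3% in DMSO. No paired analysis was possible because each treatment had 1 plate and no test was made. Reads, not molecules, were counted, so depth limits every gene read in few wells.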

Other observations

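Ucn3, a peptide of the corticotropin-releasing family, was read in 4 of 47 DMSO and 5 of 44 ISX-9 enterochromaffin wells, at 105 and 226.5 CPM. Chac1, a glutathione-degrading enzyme, was read in 10 of 47 and 4 of 44 enterochromaffin wells, at 221 CPM in DMSO and 14.7 CPM in ISX-9. Kcnh2, a potassium channel, had a log2 ratio of 1.98 for ISX-9 over DMSO enterochromaffin wells, and 1.48 as a mean over wells. Kcnma1, another potassium channel, had a ratio of 1.52 by sums, but 0.60 as a mean over wells and -0.36 after thinning. Sis, the enterocyte disaccharidase, stood at 392.5 against 208.5 CPM in the other DMSO wells and 905 against 381 CPM in ISX-9. Other enterocyte markers did not follow it. Of 3 compared, none was 2-fold higher and 1 was 2-fold lower in both plates, with median log2 ratios of -0.77 and 0.02. Alpi, Apoa4 and Fabp1 had no read in enterochromaffin wells of either plate.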
